A study of Mus musculus with 18 samples.

Results

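The mitochondrial carriers of the Slc25 family were followed in mouse pancreatic islets, as the genes of the deposited table whose symbol begins with Slc25a. These were 30 of 10509 listed genes, and the other 17 protein-coding Slc25a symbols of RefSeq GRCm38.p6 were not analysed here. All 30 passed the filter on low values. Groups were 10 islet libraries of mice labelled NRK1_BKO, in which the nicotinamide riboside kinase NRK1 (gene Nmrk1) is removed with an Ins1Cre driver, called KO, and 8 libraries of mice labelled NRK1_WT, called WT. All 18 mice had 12 weeks of high-fat diet before the islets were taken, with 1 library per mouse. Ins1Cre acts in beta cells, so the other cells of an islet keep the gene. Strain, age and sex of the mice are not given in the labels, and neither is whether the WT mice carry Cre. QuantSeq, the kit used, sequences a single stretch near the 3' end of a transcript whatever its length. Levels are therefore given in CPM on the deposited scale, the reads of a gene times a factor of its library, with no division by length. That factor does not follow the reads over listed genes alone, so a CPM here is not a plain share of reads. Capture at different 3' ends may also differ between genes.

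Carriers of this family sit in the inner mitochondrial membrane, where each moves a small set of metabolites between the cytosol and the matrix. They bring in ADP, phosphate, NAD and reducing equivalents, and they send out ATP and citrate. In beta cells the malate-aspartate shuttle and the export of citrate are known as links between glucose metabolism and insulin secretion. NAD made in the cytosol and nucleus, where NRK1 acts, reaches the matrix through Slc25a51.

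Promoter windows from RefSeq (GRCm38.p6, 250 bases before to 50 after a start) were found for 23 of the 30 carriers. They are shown for the phosphate carrier Slc25a3 and the citrate carrier Slc25a1, 2 of the 5 most abundant carriers, because each holds a motif that was searched for, given in capitals. Slc25a3 lies at chr10:91123918-91124217 on the minus strand, and its capitals mark a match to the NRF1 motif. Slc25a1 lies at chr16:17928170-17928469 on the minus strand, and its capitals mark the E-box CACGTG.
Slc25a3: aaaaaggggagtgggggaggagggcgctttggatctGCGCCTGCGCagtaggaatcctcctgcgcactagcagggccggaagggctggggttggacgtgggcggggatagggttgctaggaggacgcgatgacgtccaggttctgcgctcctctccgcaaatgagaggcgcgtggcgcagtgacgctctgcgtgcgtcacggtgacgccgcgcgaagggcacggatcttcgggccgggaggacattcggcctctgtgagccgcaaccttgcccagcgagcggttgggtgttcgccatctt
Slc25a1: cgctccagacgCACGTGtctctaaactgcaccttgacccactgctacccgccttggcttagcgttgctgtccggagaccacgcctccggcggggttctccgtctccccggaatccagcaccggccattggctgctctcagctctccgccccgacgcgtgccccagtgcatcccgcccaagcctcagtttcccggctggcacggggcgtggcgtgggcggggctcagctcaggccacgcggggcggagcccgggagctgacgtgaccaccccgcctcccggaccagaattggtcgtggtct
Both strands were searched, and each of these windows held 1 match. The NRF1 motif, bound by a factor known for nuclear-encoded mitochondrial genes, was in 1 of the 23 carriers, against 12.1% of the 8480 listed genes with a window and 5.19% of all 27025 genes with one. The E-box was in 5 of the 23, Slc25a1, Slc25a13, Slc25a14, Slc25a15 and Slc25a36, against 12.0% of listed genes. The motif of the estrogen-related receptors, TCAAGGTCA, was in 0 of the 23 and in 0.354% of listed genes. These are matches of letters in a window and show no binding.

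The libraries held 2831137 to 4303680 reads over the listed genes, of which the 2 insulin genes took 41.4% to 59.5%. Together the 30 carriers took 0.0907% to 0.173% of reads in KO and 0.117% to 0.175% in WT. Of the reads outside the insulin genes they took 0.190% to 0.315% in KO and 0.244% to 0.305% in WT, with means of 0.263% and 0.267%. Beta-cell markers were abundant, with 7 of 8 fixed markers measured and a summed level of 376174 to 784415 CPM in KO and 398596 to 664063 CPM in WT. Acinar markers, 11 of 14 measured, summed to 50.3 to 2040 CPM in KO and 59.1 to 1947 CPM in WT. Adipocyte markers, 3 of 5 measured, summed to 26.3 to 106 CPM in KO and 20.4 to 43.7 CPM in WT. Alpha-cell markers, 5 of 6 measured, summed to 2015 to 9275 CPM in KO and 3823 to 11765 CPM in WT. No measured marker was at 0 in every library. WT 7, KO 2 and KO 3 had the most listed genes at 0 reads, 346, 320 and 227, against 33 to 150 in the other libraries. The targeted gene Nmrk1 had 4 to 21 reads in KO and 3 to 36 in WT, with a log2 fold change of -0.03 and a 95% interval of -0.75 to 0.70. Since the labels do not name the deleted part, these reads do not check the genotype.

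Mean carrier levels ranged from 296 CPM down to 1.92 CPM, and a few carriers made up most of the total. Of the 30 genes, 5 averaged 100 CPM or more, 12 lay between 10 and 100 CPM and 13 were under 10 CPM. The 6 most abundant, Slc25a39, Slc25a3, Slc25a51, Slc25a4, Slc25a1 and Slc25a44, held 70.1% of the family's CPM. By substrate, the iron and glutathione carriers took 25.8% of it, the phosphate and ATP-Mg carriers 19.7%, the carriers of NAD, coenzymes and nucleotides 15.1% and the ADP/ATP carriers 10.3%. In the order of mean log2 levels, the gap between neighbours was below the SD of that gap across libraries for 25 of 29 neighbouring pairs. That SD describes single libraries, so whether the mean levels of neighbours differ was not tested. The 4 gaps that exceeded the SD were those below Slc25a39, Slc25a1, Slc25a12 and Slc25a37.

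**Figure D1:**
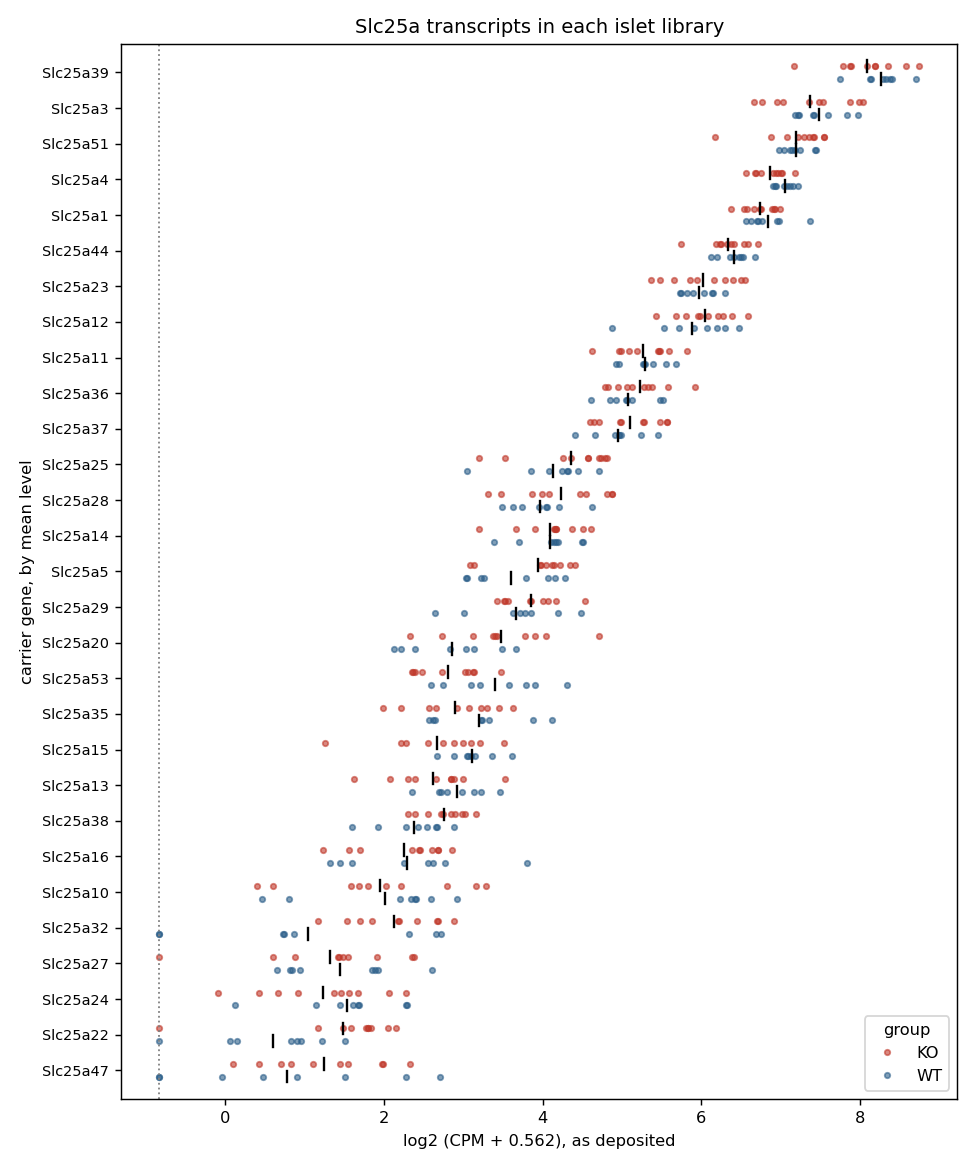
Level of 29 Slc25a transcripts in each islet library, on the deposited scale of log2 (CPM + 0.562), for KO (upper row of each gene, red) and WT (lower row, blue). Points are libraries, black ticks are group means, and the dotted line marks 0 reads. The carriers fall from Slc25a39 at a mean of 296 CPM to carriers under 10 CPM, and KO and WT overlap for each of the 29, where 0.00952% of all genes had groups that did not overlap.

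Slc25a39 (chromosome 11, 102402969 to 102408675, GRCm38), which imports glutathione into mitochondria, was the most abundant carrier, at 296 CPM ± 72.3 (SD, n = 18). It had 143, 281 and 430 CPM as lowest, median and highest value in KO, and 214, 317 and 417 CPM in WT. The groups overlapped, and the lowest library was KO 2. The mitoferrins that import iron were lower, with Slc25a37 at 33.2 CPM ± 8.25 (SD, n = 18) and Slc25a28 at 17.7 CPM ± 6.34 (SD, n = 18). Slc25a37 was above Slc25a28 in 18 of 18 libraries. Slc25a28 lies on chromosome 19, which also carries Ins1, and its log2 fold change was 0.26 (95% interval -0.21 to 0.73).

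The phosphate carrier Slc25a3 (chromosome 10, 91116574 to 91124046), which supplies phosphate for ATP synthesis, was second at 177 CPM ± 50.3 (SD, n = 18). It had 101, 170 and 262 CPM as lowest, median and highest value in KO, and 145, 170 and 251 CPM in WT. Among the ATP-Mg/phosphate carriers, which set the matrix pool of adenine nucleotides, Slc25a23 led with 65.2 CPM ± 15.3 (SD, n = 18). Slc25a25 averaged 19.6 CPM and Slc25a24 2.30 CPM, both below Slc25a23 in 18 of 18 libraries. Slc25a23 overlaps Crb3 on the other strand and Slc25a25 overlaps Naif1, and the sources used here do not say whether counting used strand.

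Of the ADP/ATP carriers, which exchange matrix ATP for cytosolic ADP, Slc25a4 (chromosome 8, 46207168 to 46211062) dominated the measured reads. It averaged 124 CPM ± 15.1 (SD, n = 18), with 94.4, 121 and 144 CPM as lowest, median and highest value in KO, and 120, 133 and 149 CPM in WT. Slc25a5 (X chromosome, 36795597 to 36798808) averaged 14.1 CPM ± 4.59 (SD, n = 18), with 7.92, 16.3 and 20.7 CPM in KO, and 7.60, 11.1 and 18.9 CPM in WT. Slc25a4 was above Slc25a5 in 18 of 18 libraries, by 8.92-fold on average on the deposited log2 scale. The level of Slc25a5 is uncertain, because the gene has a processed copy, Slc25a5-ps. Of 251 distinct windows of 50 bases in the last 300 bases of its transcripts in GENCODE M21, 18 occur unchanged in that copy. The sources used here do not say how a read that fits gene and copy was treated, and its part in the low level was not tested. For 28 of the 30 carriers no such window was found in another annotated gene, and for Slc25a51 1 of 502 was.

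The NAD carrier Slc25a51 (chromosome 4, 45395923 to 45408917) followed Slc25a3 in the order of levels, at 149 CPM ± 28 (SD, n = 18), a level above 94.2% of all listed genes. It had 71.7, 160 and 186 CPM as lowest, median and highest value in KO, and 126, 143 and 174 CPM in WT. The WT values lay inside the range of KO, and the lowest KO library was KO 2. Slc25a51 was above the citrate carrier Slc25a1 and above Slc25a4 in 15 of 18 libraries each. The other carriers of coenzymes and nucleotides were less abundant. Slc25a36, a pyrimidine nucleotide carrier, averaged 36.1 CPM and the folate carrier Slc25a32 3.36 CPM.

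All 3 carriers of the malate-aspartate shuttle, which moves reducing equivalents of cytosolic NADH into the matrix, were measured. The aspartate/glutamate carrier Slc25a12 (chromosome 2, 71274270 to 71367781), also called aralar, averaged 64.5 CPM ± 17.0 (SD, n = 18), with 42.6, 65.0 and 95.3 CPM as lowest, median and highest value in KO, and 28.7, 63.2 and 88.2 CPM in WT. Its close relative Slc25a13, citrin (chromosome 6, 6041218 to 6217304), averaged 6.5 CPM ± 2.20 (SD, n = 18), with 2.52, 6.19 and 10.9 CPM in KO, and 4.55, 6.84 and 10.5 CPM in WT. Slc25a12 was above Slc25a13 in 18 of 18 libraries, by 9.32-fold on average on the deposited log2 scale. The oxoglutarate/malate carrier Slc25a11 (chromosome 11, 70644019 to 70647531) lay between them, at 39.1 CPM ± 8.30 (SD, n = 18), with 24.2, 39.7 and 55.9 CPM in KO, and 29.9, 38.5 and 50.5 CPM in WT. Slc25a11 overlaps Rnf167 on the other strand, which was at 34.3 CPM.

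Citrate leaves mitochondria through Slc25a1 (chromosome 16, 17925211 to 17928219), which averaged 111 CPM ± 18.8 (SD, n = 18). It had 82.3, 107 and 127 CPM as lowest, median and highest value in KO, and 94.1, 106 and 166 CPM in WT, with WT 7 the highest of all. The dicarboxylate carrier Slc25a10 averaged 4.10 CPM ± 2.52 (SD, n = 18), from 2 to 33 reads per library, and the glutamate carrier Slc25a22 1.92 CPM. Slc25a11 was above Slc25a10 in 18 of 18 libraries.

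Carriers of carnitine and amino acids were led by Slc25a44, known in mouse brown fat as a carrier of branched-chain amino acids, at 83.0 CPM ± 12.6 (SD, n = 18). It had 53.1, 80.9 and 105 CPM as lowest, median and highest value in KO, and 69.0, 86.4 and 102 CPM in WT. The basic amino acid carrier Slc25a29 averaged 13.7 CPM. The carnitine/acylcarnitine carrier Slc25a20, which brings fatty acids in for oxidation, averaged 9.74 CPM, the ornithine carrier Slc25a15 7.17 CPM and the glycine carrier Slc25a38 5.65 CPM. The remaining carriers, Slc25a14, Slc25a53, Slc25a35, Slc25a16, Slc25a27 and Slc25a47, ranged from 17.0 CPM for Slc25a14 to 2.0 CPM for Slc25a47. Carriers at 0 reads in at least 1 library were 4, Slc25a32, Slc25a27, Slc25a22 and Slc25a47. Of family members under other symbols, the uncoupling protein Ucp2 averaged 146 CPM, the outer-membrane protein Mtch1 597 CPM and Mtch2 108 CPM. All 251 windows of Ucp2 are also in annotated transcripts of Dnajb13, which overlaps it on the other strand and is not among the listed genes. Whether counting used strand is not known, so the level of Ucp2 is uncertain.

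Spread between libraries was smallest in the abundant carriers. Among those with a mean of at least 20 reads, the SD of the log2 level over 18 libraries was lowest for Slc25a4 at 0.18, Slc25a1 and Slc25a44, both at 0.23. It was highest for Slc25a20 at 0.69, Slc25a53 at 0.57 and Slc25a35 at 0.56. Counting error alone accounts for an SD of 0.07 for Slc25a4 and 0.26 for Slc25a20, so the spread beyond counting was 0.17 and 0.64. Slc25a3 and Slc25a39 were abundant but more variable than Slc25a4, with SDs of 0.42 and 0.38 against counting SDs of 0.06 and 0.05. By the number of carriers below their own mean, KO 3 and WT 7 stood lowest as libraries, each with 22 of 30. By the family's share of reads KO 2 was lowest, at 0.0907%, with 15 of 30 carriers below their own mean. KO 2 was also lowest by the share of reads outside the insulin genes, at 0.190%, where WT 7 had 0.261%. All of these libraries are among the 3 named above for genes without reads.

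**Figure D2:**
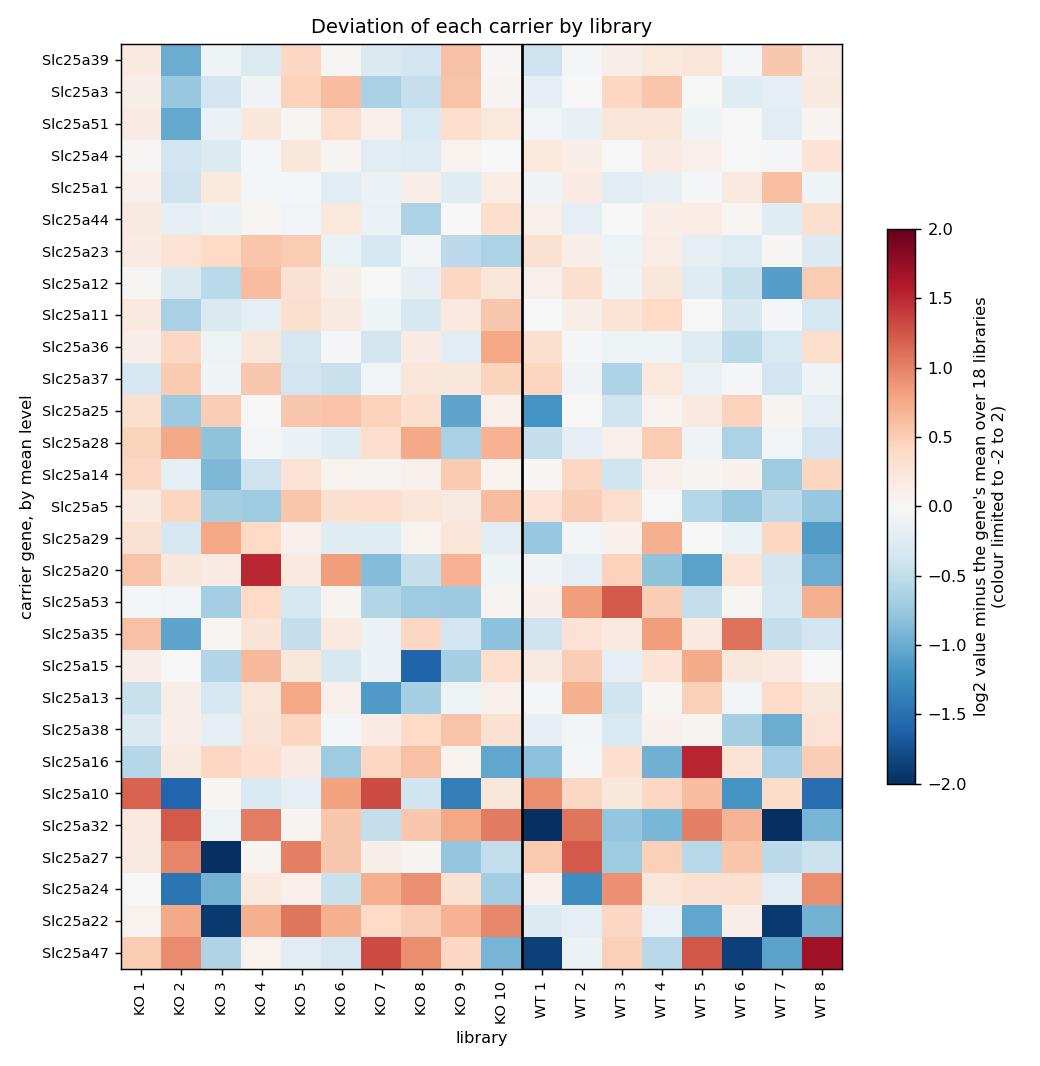
Deviation of 29 carriers, each from its own mean over the 18 libraries, on the log2 scale, for 10 KO libraries (left of the line) and 8 WT libraries (right). Rows run from the most abundant carrier down. Slc25a39, Slc25a3 and Slc25a51 share a low value in KO 2, and the colours widen toward the carriers with few reads.

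Between KO and WT islets no carrier differed beyond the test. Limma on the log2 values, with adjustment over all 10509 genes, called 0 of the 30 carriers, and it called 0.0% of all genes. At an unadjusted p under 0.05 there were 4 carriers, 3 higher and 1 lower in KO, against 5.4% of all genes in either direction, 3.18% higher and 2.22% lower. With limma voom, run on recovered reads, 0 were called and 3 carriers stood at an unadjusted p under 0.05. Of the 30, 14 were higher and 16 lower in KO, with a median log2 fold change of -0.02, against -0.00 over all genes, of which 49.6% were higher. The 95% interval lay within a 2-fold change in either direction for 24 carriers, or 80.0%, and for 77.1% of all genes. Among the 16 carriers with a mean of at least 50 reads, 0 had an unadjusted p under 0.05, against 5.06% of genes at that depth, and all 16 intervals lay within 2-fold.

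**Figure D3:**
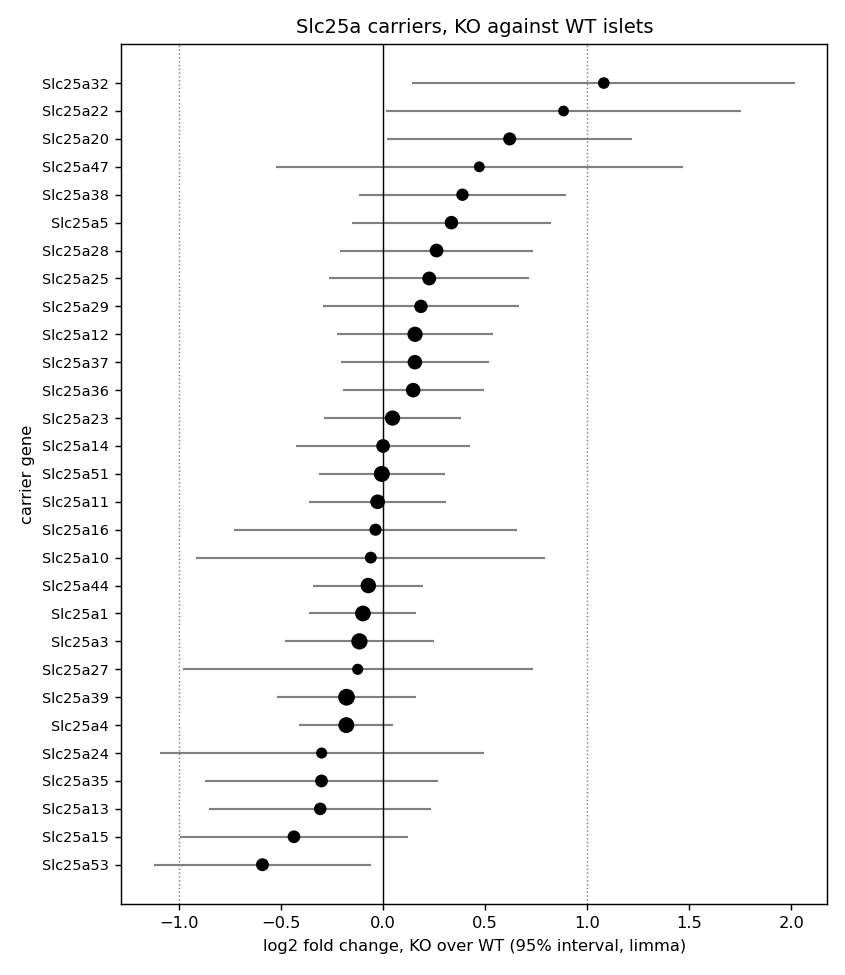
Log2 fold change of KO over WT for 29 carriers with 95% intervals from limma, where larger points have more reads and dotted lines mark 2-fold. The intervals of 23 of them lie inside these lines, and those of Slc25a32, Slc25a22, Slc25a20 and Slc25a53 exclude 0 before adjustment.

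The 6 most abundant carriers all lay below 0, with log2 fold changes from -0.18 to -0.01. Of all genes with a mean of at least 50 reads, 44.9% were higher in KO. The NAD carrier Slc25a51 averaged 150 CPM ± 35.0 (SD, n = 10) in KO and 147 CPM ± 17.8 (SD, n = 8) in WT, with a log2 fold change of -0.01 (SE 0.15, 95% interval -0.32 to 0.30), a sign that turned in 6 of 18 fits that left out 1 library. Slc25a39 was at -0.18 (-0.52 to 0.16), the phosphate carrier Slc25a3 at -0.12 (-0.48 to 0.25), the citrate carrier Slc25a1 at -0.10 (-0.36 to 0.16) and Slc25a44 at -0.07 (-0.34 to 0.20). The malate-aspartate carriers did not share a sign, with Slc25a12 at 0.16 (-0.22 to 0.54), Slc25a11 at -0.03 (-0.36 to 0.31) and Slc25a13 at -0.31 (-0.85 to 0.24). Slc25a12 was at -0.06 and Slc25a11 at -0.31 over the 12 libraries whose run of animal numbers holds KO and WT, and Slc25a11 was at 0.08 without KO 2, KO 3 and WT 7. With run as a term over those 12 libraries, Slc25a51 was at -0.18, Slc25a3 at -0.32 and Slc25a39 at -0.27. In that fit Slc25a4 was at -0.24, Slc25a44 at -0.16 and Slc25a1 at -0.01, and no carrier was called.

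Slc25a4 had the narrowest interval of the carriers, and lay toward lower values in KO. It averaged 117 CPM ± 15.4 (SD, n = 10) in KO and 132 CPM ± 10.5 (SD, n = 8) in WT, and 9 of 10 KO libraries were below the WT mean. The log2 fold change was -0.18 (SE 0.11, 95% interval -0.41 to 0.05, limma adjusted p = 0.945). Its partner Slc25a5 was at 0.34 (-0.15 to 0.82, adjusted p = 0.945), and at -0.04 over those 12 libraries. Within a library, the log2 ratio of Slc25a4 to Slc25a5 was 2.93 ± 0.46 (SD, n = 10) in KO and 3.44 ± 0.53 in WT (SD, n = 8). The difference was -0.51, with an exact permutation p of 0.0445, two-sided, and an adjusted p of 0.178 over 4 ratios, so it did not pass. Within runs the difference was -0.20 (exact permutation within runs, adjusted p = 0.759).

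The other 3 ratios did not pass either. For Slc25a12 to Slc25a13 the log2 ratio was 3.43 ± 0.49 (SD, n = 10) in KO and 2.96 ± 0.62 in WT (SD, n = 8), with an exact permutation p of 0.0982 and an adjusted p of 0.196. The mitoferrin ratio, Slc25a37 to Slc25a28, was 0.88 ± 0.56 (SD, n = 10) in KO and 0.98 ± 0.53 (SD, n = 8) in WT (exact permutation adjusted p = 0.682). For Slc25a25 to Slc25a23 it was -1.67 ± 0.62 (SD, n = 10) in KO and -1.85 ± 0.65 (SD, n = 8) in WT (exact permutation adjusted p = 0.682). The smallest p these 43758 regroupings can give is 4.57e-05.

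The carriers of smallest p in the higher direction were Slc25a32, Slc25a20, Slc25a22 and Slc25a38, and all of them had few reads. The folate carrier Slc25a32 (chromosome 15, 39091230 to 39112720) had 1.68, 3.98 and 6.79 CPM as lowest, median and highest value in KO, and 0, 1.18 and 6.03 CPM in WT. Each of 10 KO libraries was above the WT mean on the log2 scale, but in CPM KO 3 and KO 7 lay below the WT mean of 2.45. The groups overlapped, since WT 2, WT 5 and WT 6 were as high as most KO libraries, while WT 1 and WT 7 had 0 reads. The log2 fold change of Slc25a32 was 1.08 (SE 0.46, limma adjusted p = 0.925). It ranged from 0.69 to 1.52 in the other fits of this gene that kept all or most libraries. In 3 runs of consecutive animal numbers with both groups the difference was 1.26, 1.38 and -0.81, the last with 3 KO libraries and 1 WT library.

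The glutamate carrier Slc25a22 (chromosome 7, 141429749 to 141437874) had 0, 2.88 and 3.89 CPM as lowest, median and highest value in KO, and 0, 1.26 and 2.28 CPM in WT. These are 0 to 16 reads, and 7 of 10 KO libraries were above every WT library while KO 3 had none. The log2 fold change was 0.88 (SE 0.42, limma adjusted p = 0.925), with within-run differences of -0.36, 0.74 and 1.57. The glycine carrier Slc25a38 was at 0.39 (-0.12 to 0.90, adjusted p = 0.945).

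The carnitine/acylcarnitine carrier Slc25a20 (chromosome 9, 108662136 to 108684642) had 4.47, 10.1 and 25.6 CPM as lowest, median and highest value in KO, and 3.81, 7.09 and 12.1 CPM in WT. KO 4 was the highest of all, and 4 of 10 KO libraries were above every WT library. Its log2 fold change was 0.62 (SE 0.29, limma adjusted p = 0.925), with within-run differences of 0.32, 1.02 and 0.91. Adipocyte markers were also higher in KO, with a mean score of 3.45 ± 0.68 (SD, n = 10) in KO and 2.74 ± 0.36 (SD, n = 8) in WT on the log2 scale. With that score as a covariate, chosen after seeing the data, the log2 fold change of Slc25a20 was 0.32 (limma adjusted p = 0.997). With the acinar score it was 0.60 (limma adjusted p = 0.851). In the adipocyte fit 401 genes had an unadjusted limma p under 0.05, against 567 in the main fit. There Slc25a5 moved from 0.34 to 0.14 and Slc25a15 from -0.44 to -0.20. Slc25a32 stayed at 1.08, and Slc25a53 moved from -0.59 to -0.68. Whether adipocyte RNA had a part in Slc25a20 was not tested. In islet tissue, fewer cells of a type and less RNA per cell cannot be told apart.

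**Figure D4:**
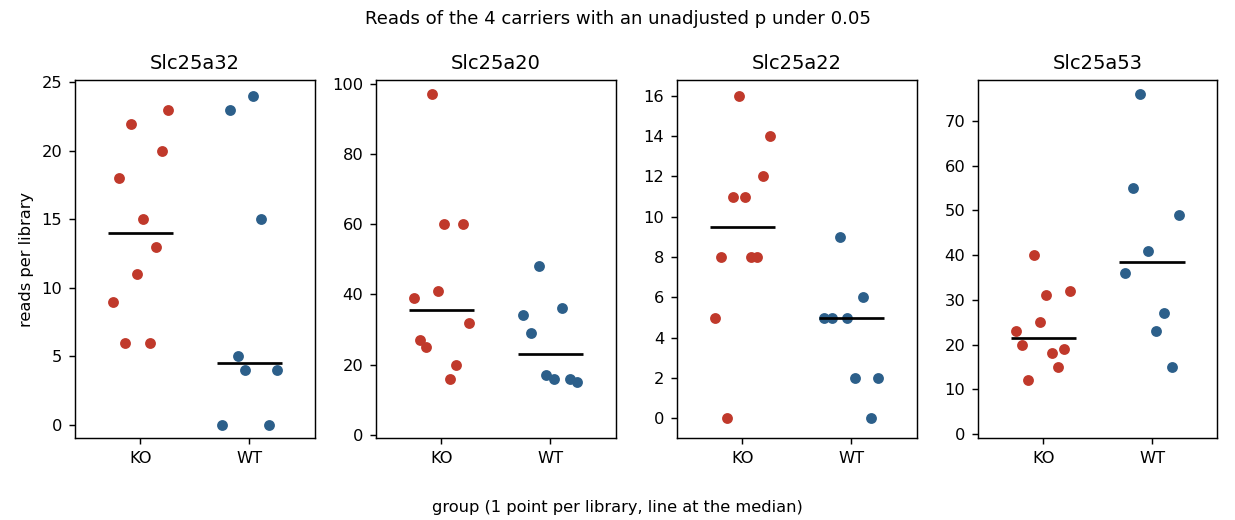
Reads per library of the 4 carriers with an unadjusted p under 0.05, in KO (left, red) and WT (right, blue), with 1 point per library and a line at the median. The groups overlap in each panel, and Slc25a22 rests on 0 to 16 reads.

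In the lower direction the smallest p belonged to Slc25a53, Slc25a4, Slc25a15 and Slc25a13. Slc25a53 (X chromosome, 136981116 to 137038302) had 4.54, 6.81 and 10.6 CPM as lowest, median and highest value in KO, and 5.48, 10.0 and 19.2 CPM in WT. The log2 fold change was -0.59 (SE 0.26, limma adjusted p = 0.925), with 9 of 10 KO libraries below the WT mean and 4 of 8 WT libraries above every KO library. Within runs the differences were -0.85, -0.84 and 0.07. Slc25a53 overlaps Zcchc18 on the other strand, which averaged 173 CPM ± 32.5 (SD, n = 10) in KO and 206 CPM ± 15.2 (SD, n = 8) in WT, a log2 fold change of -0.27 (SE 0.12, adjusted p = 0.925). Whether reads of one were counted for the other was not tested. Alpha-cell markers were also lower in KO in 5 of 5 measured genes, with 0 called, and their mean score was 5.96 ± 0.64 (SD, n = 10) in KO and 6.56 ± 0.37 (SD, n = 8) in WT on the log2 scale. Delta-cell markers were lower in KO in 3 of 3 measured genes. Ductal markers were higher in 5 of 5 and fibroblast markers in 4 of 4, with 0 called in each of these lists. The part of cell composition in the carriers that were lower in KO was not tested. The ornithine carrier Slc25a15 was at -0.44 (-0.99 to 0.12, adjusted p = 0.945), with 8 of 10 KO libraries below the WT mean.

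Of 5 pairs of carriers whose levels were compared across libraries, only Slc25a51 with Slc25a3 passed in all 18 libraries. Pearson's r was 0.724 (permutation p = 0.00014, adjusted p = 0.0007 over 5 pairs) and Spearman's rho 0.746 (permutation p = 0.0005, adjusted p = 0.0025). Within KO r was 0.714 (n = 10, permutation p = 0.0064) and within WT it was 0.854 (n = 8, permutation p = 0.0098). Without KO 2 and KO 8, the libraries farthest from the median of Slc25a51, r was 0.618 and did not pass (permutation adjusted p = 0.0577). Without KO 2 alone r was 0.673 (permutation adjusted p = 0.0176), and without KO 8 alone it also passed (permutation adjusted p = 0.00215). The runs of animal numbers with both KO and WT hold 4 libraries each, too few for an r of their own. The ADP/ATP carriers Slc25a4 and Slc25a5 had an r of -0.036 (rho 0.005) and the phosphate carrier with Slc25a5 0.134 (rho 0.090). For Slc25a12 with Slc25a13 r was 0.149 (rho 0.288) and for Slc25a1 with Slc25a11 0.033 (rho -0.131). These 4 had permutation adjusted p from 0.612 to 0.986 for either measure. Points of one library share its scaling factor and its cell composition. No pair with Slc25a39 and no genes outside the family were compared. Whether the link is particular to Slc25a51 and Slc25a3 was therefore not tested.

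**Figure D5:**
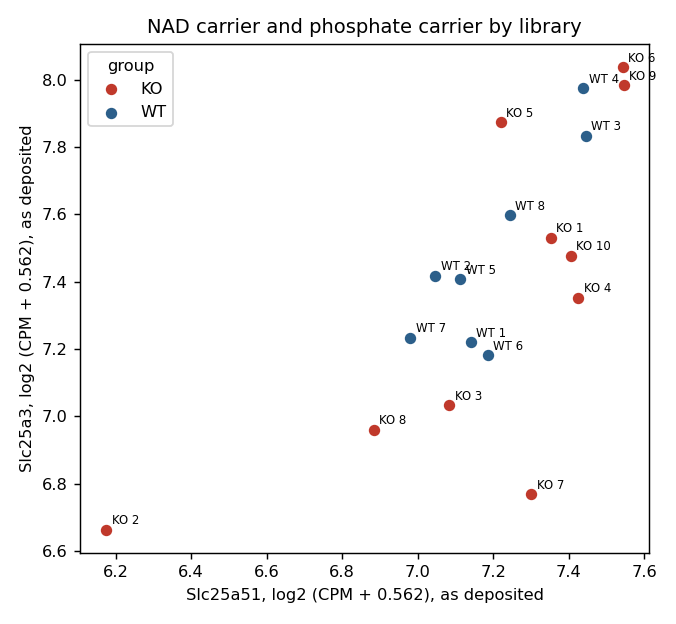
Level of the phosphate carrier Slc25a3 (vertical) against the NAD carrier Slc25a51 (horizontal) in each library, on the deposited scale of log2 (CPM + 0.562), with KO in red and WT in blue. Libraries high in one carrier tend to be high in the other (r = 0.724), KO 2 is the lowest in both, and KO 7 lies below the others at its Slc25a51 level.

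Enzymes and pores that work with the carriers were likewise not called. Of 6 genes of the malate-aspartate and glycerol phosphate shuttles, 1 was higher and 5 were lower in KO, with 0 called and a median log2 fold change of -0.15. The mitochondrial malate dehydrogenase Mdh2 was at -0.25 (SE 0.17), Gpd2 at -0.19 (SE 0.18) and the mitochondrial aspartate aminotransferase Got2 at 0.15 (SE 0.17), each with a limma adjusted p of at least 0.945. Among 8 measured partners in pyruvate, citrate and acylcarnitine metabolism, 5 were higher and 3 lower, with 0 called. ATP-citrate lyase Acly, which uses the exported citrate, had 995 CPM ± 252 (SD, n = 10) in KO and 996 CPM ± 150.4 (SD, n = 8) in WT. Of 8 measured outer-membrane pores and import factors, 5 were higher and 3 lower, with 0 called, among them Timm22, which inserts carriers into the inner membrane, at -0.37 (SE 0.22). The 3 family members under other symbols also had 0 called, with Ucp2 at 0.11 (SE 0.18), Mtch1 at -0.13 (SE 0.14) and Mtch2 at -0.21 (SE 0.15).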

How the data were processed

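The authors deposited a table of log2 values, with 10509 genes and a column for each of 18 samples. STAR 2.5.2, HTSeq 0.6.1, edgeR and GRCm38 are named, per the submitters' processing notes, without a role. The sources used here give no annotation, filter or offset. The lowest value is the same in each column, -0.83, or 0.562 CPM. With it subtracted, all values were whole multiples (within 0.05 reads) of 0.238 to 0.411 CPM, taken as 1 read. This CPM per read did not follow the reads over listed genes alone. KO 3 had more such reads than KO 2, 3292303 against 2846386, and also more CPM per read, 0.390 against 0.377. How the factor was set is not given. Totals cover listed genes, and PCR copies make read numbers understate error. Labels give no replicate numbers, so libraries were numbered within groups, and p-values measure the spread between mice. The 73 pairs within groups differed beyond sampling noise (chi-square per degree of freedom 6.01 to 41.3).

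The test was limma 3.58.1 in R 4.3.3, two-sided, without covariates and with a trend of variance on level; calls needed a Benjamini-Hochberg adjusted p under 0.05. Requiring log2 above 0 in 8 samples removed 0 genes. The script was tested on simulated data. Ratios had exact permutation tests, and correlations had 100000 resamples. Named were the 6 highest carriers, 10 carriers picked by substrate, the 4 of smallest p in each direction and the 3 of highest and lowest SD. Members and lists were chosen with earlier results of these data known, and the promoter motifs, the 50-base windows, the 50-read split and the overlapping genes after the values had been seen. Of the 30 carriers, 1 enters the counts and sums but is not reported here by itself.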

Additional observations from a re-analysis of the deposited data

Results flagged for a closer look

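Of 58 sets of values, 29 carriers in each of KO and WT, 2 held a library far from the rest of its group by Dixon's gap, and chance gives about 1 in 20. The NAD carrier Slc25a51 was lowest in KO 2, at a log2 level of 6.18 (190 reads), where the other KO libraries ranged from 6.88 to 7.54. KO 2 also had 320 listed genes without a read. The glutamate carrier Slc25a22 was lowest in KO 3, at -0.83 with 0 reads, where the other KO libraries ranged from 1.17 to 2.15.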

How the results depend on the processing

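No paired analysis was possible because the labels give no replicate numbers shared by KO and WT, and runs of consecutive animal numbers were used as a term instead. In each of the 12 other fits (a stricter filter of log2 above 3, quantile normalization, median centring, voom, 1 added before the log, no trend, acinar or adipocyte covariates, without KO 2, KO 3 and WT 7, 12 libraries of shared runs, alone or with a run term, and 15 with that term) and in 18 fits without 1 library, limma called 0 carriers and 0 genes. Having no filter gave the same genes. The adipocyte covariate and the fit of 15 libraries, where KO 1 joins WT 6 and WT 7 on the assumption that its animal number, longer than the others, is a misprint, were chosen after seeing the data, as were the correlations without KO 2, KO 3 and WT 7 or without 1 library. The median over the carriers ranged from -0.09 to 0.05 in the 12 fits and from -0.04 to 0.03 without 1 library.

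Some signs turned. Slc25a51 was 0.017 with quantile normalization and 0.10 without KO 2, KO 3 and WT 7, where Slc25a10 was 0.17 and Slc25a11 0.084. Over the 12 libraries Slc25a51 kept its sign, at -0.15 alone and -0.18 with the run term. There Slc25a5 was -0.036 alone and -0.037 with the run term, and Slc25a12 was -0.065 alone and -0.029 with it. Within runs the ratio of Slc25a37 to Slc25a28 was 0.067. Without 1 library, Slc25a51 ranged from -0.045 to 0.11, Slc25a10 from -0.28 to 0.11, Slc25a11 from -0.087 to 0.045, the ratio of Slc25a37 to Slc25a28 from -0.22 to 0.015 and that of Slc25a25 to Slc25a23 from -0.020 to 0.30. The correlation of Slc25a4 and Slc25a5 was 0.168 on residuals from the group means, and that of Slc25a1 and Slc25a11 was -0.317 without the 2 farthest libraries and -0.223 without KO 2, KO 3 and WT 7. That of Slc25a51 and Slc25a3 lost its call at 0.618 and 0.641 there (permutation adjusted p = 0.0577 and 0.0506), and kept it without any 1 library (0.673 to 0.824). The cause was not tested.

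Depth limits most the carriers with few reads, such as Slc25a22 with 0 to 16 reads in KO and 0 to 9 in WT.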
